A study of Homo sapiens with 9 samples.

Results

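The genes of cholesterol and fatty acid synthesis were followed on 9 expression arrays of SK-N-AS, an established neuroblastoma line of human origin. They were taken from a list of 31 genes of the pathway that sterol regulatory element-binding proteins (SREBPs) control. The list was chosen by function, with earlier results of these data known. It holds 18 genes of the sterol branch, 8 of the fatty acid branch, and 5 that regulate both branches or carry sterols. Of the 31, 28 had a probe set that names this gene alone, 61 probe sets of 54675 in all, and 27 were bright enough to be tested among 13799 genes. These were 15 sterol genes, 7 fatty acid genes and 5 regulators. CYP51A1 and FADS1 are read by probe sets that name a second gene as well and were not used, FDFT1 was matched to no probe set by the annotation used, and MVD, mevalonate diphosphate decarboxylase, was too dim, with signals of 2.567 to 51.56.

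One series of cells over-expressed full-length NRSF from RE-EX1, one over-expressed a truncated NRSF from HZ4 and one was untreated, and RNA of each was taken at 0, 24 and 48 h. NRSF, encoded by REST, represses neuronal genes. Each of the 9 combinations is 1 array, so a single array has no replicate check; triplicates and batches are mentioned in the study's design text, but no label ties an array to them. Whether cultures were pooled on an array is not stated. All 9 arrays share the line, a medium with fetal bovine serum and the array type, and the construct series have 0 h arrays of their own that are labelled as baselines. What vector and promoter carry the constructs, and how they entered the cells, is not stated in the sources at hand.

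Cells make cholesterol from acetyl-CoA through mevalonate, farnesyl diphosphate, squalene and lanosterol, and they make fatty acids from the same acetyl-CoA through malonyl-CoA. When sterols in the endoplasmic reticulum are low, the escort protein SCAP carries SREBPs to the Golgi, where proteases release the part that enters the nucleus and switches on these genes. When sterols are high, INSIG1 holds SCAP back. SREBP2 acts mainly on the sterol branch and one form of SREBP1 mainly on the fatty acid branch.

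The promoters of 5 genes are printed as examples. They are INSIG1 and HMGCS1, which were high at 24 h, FDPS and SCD, which fell at 24 h, and SREBF2, which holds the only classical sterol element found. The HMGCS1 change had a limma adjusted p of 0.068, above the threshold of 0.05. Each runs 5′ to 3′ on the gene's strand, from 250 bases before to 50 bases after the start site (RefSeq, GRCh38.p14). Capitals mark the CCAAT box on either strand (CCAAT, or ATTGG on the other strand), which the factor NF-Y binds beside SREBPs, and the SRE-1 element, to which SREBPs bind.
INSIG1, chr7:155297628-155297927, plus strand: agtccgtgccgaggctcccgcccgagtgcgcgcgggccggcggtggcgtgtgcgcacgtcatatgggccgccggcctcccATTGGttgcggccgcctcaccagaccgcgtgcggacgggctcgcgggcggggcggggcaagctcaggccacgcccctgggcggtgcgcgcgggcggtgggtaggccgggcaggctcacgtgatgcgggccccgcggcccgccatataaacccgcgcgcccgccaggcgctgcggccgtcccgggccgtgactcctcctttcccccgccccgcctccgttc
HMGCS1, chr5:43313363-43313662, minus strand: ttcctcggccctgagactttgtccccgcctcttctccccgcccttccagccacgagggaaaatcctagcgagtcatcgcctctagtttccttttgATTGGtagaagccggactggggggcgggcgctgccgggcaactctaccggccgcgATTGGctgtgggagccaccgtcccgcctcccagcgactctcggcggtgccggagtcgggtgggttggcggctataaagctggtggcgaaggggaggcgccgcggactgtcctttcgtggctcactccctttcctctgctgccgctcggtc
FDPS, chr1:155308616-155308915, plus strand: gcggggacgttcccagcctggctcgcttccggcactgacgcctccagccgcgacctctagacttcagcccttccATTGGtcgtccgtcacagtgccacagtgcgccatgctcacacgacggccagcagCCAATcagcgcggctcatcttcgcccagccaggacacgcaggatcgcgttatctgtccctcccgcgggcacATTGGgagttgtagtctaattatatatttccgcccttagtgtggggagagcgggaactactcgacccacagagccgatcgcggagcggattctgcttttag
SCD, chr10:100346983-100347282, plus strand: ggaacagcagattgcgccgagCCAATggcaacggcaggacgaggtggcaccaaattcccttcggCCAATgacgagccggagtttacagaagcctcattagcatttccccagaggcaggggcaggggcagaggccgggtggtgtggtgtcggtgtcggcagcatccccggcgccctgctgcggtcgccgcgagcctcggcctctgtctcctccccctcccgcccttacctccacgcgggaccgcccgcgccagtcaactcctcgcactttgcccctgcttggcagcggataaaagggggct
SREBF2, chr22:41832855-41833154, plus strand: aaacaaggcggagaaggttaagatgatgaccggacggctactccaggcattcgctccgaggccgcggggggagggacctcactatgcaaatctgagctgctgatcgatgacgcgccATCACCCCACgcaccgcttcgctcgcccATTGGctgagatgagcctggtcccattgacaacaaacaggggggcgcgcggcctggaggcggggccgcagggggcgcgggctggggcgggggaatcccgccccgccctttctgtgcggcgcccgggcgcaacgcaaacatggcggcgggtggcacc

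Promoters of the same 300 bases were at hand for 27 of the 31 genes, which are not the same 27 as those tested. The CCAAT box was in 12 of 15 sterol promoters, in 3 of 7 fatty acid promoters and in 3 of 5 regulator promoters, and in 35.7% of 27305 promoters of all genes. FDPS holds it at -176, -122 and -51 from the start site, HMGCS1 at -155 and -100, INSIG1 at -170 and SCD at -229 and -186 (first base of the match, with no base 0). SRE-1 was in the SREBF2 promoter only, at -134, and in 0.0476% of all promoters. The looser form TCACNCCAC, which overlaps SRE-1, found no other gene of the list, against 1.15% of all promoters. The E-box CACGTG, which reads the same on both strands, was in 4 of 27 promoters (SCAP, INSIG1, SC5D and LSS) and in 7.43% of all. The left arm of the NRSF element, TTCAGCACC, was in 0 of 27 and in 0.403% of all. All motifs were searched on both strands, and a match is only a match of letters in this window. No link between a motif and a change in signal was tested. The promoters of SCAP and ACACA, whose brightest probe sets were lower at 24 and 48 h, held no CCAAT box.

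Signals are linear and were scaled by the authors to a common mean on all arrays. Medians per array ran from 30.87 to 42.67, and each array had 21.9% to 26.9% of its probe sets no higher than the floor of 8.266 used here. The truncated 24 h array stood apart: its median correlation with the other arrays across genes was 0.909, against 0.922 to 0.931 for the others, and its dimmest 20% of genes read 0.52 log2 above their means. The main results at 24 h are therefore also given without it. The ratio of 3′ to 5′ ACTB control probe sets ran from 2.251 to 4.187. Mesenchymal neuroblastoma markers summed to signals of 18220 to 26030 with all 6 tested, and 6 of 10 sympathoadrenal markers were tested, among them GATA3 and ISL1, whereas the defining enzymes TH and DBH were below the filter. All 4 adipocyte markers and 3 of 4 hepatocyte markers were too dim to be tested. The adipocyte sum was 18.71 to 88.76, and the hepatocyte sum 37.38 to 111.8. Of blood, epithelial and endothelial markers 2 of 4, 2 of 4 and 1 of 3 were tested. Their sums were 94.83 to 232.3, 2537 to 6277 and 110.6 to 210.2. The epithelial EPCAM and CDH1 were too dim, and the tested KRT8 and KRT18 had signals of 81.91 to 188.8 and 2382 to 6076. KRT18 made up most of the epithelial sum.

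The first question was how the pathway moved with time in culture, whichever construct was present. A model with terms for series and time was fitted to all 13799 genes with limma, and a gene passed when its Benjamini-Hochberg adjusted p was under 0.05; the 3 series serve as the 3 readings of each time, and a p-value here reflects nothing but the scatter among these arrays. At 24 h, 7 of 27 genes passed, 2 up and 5 down, against 16.2% of all genes. In the sterol branch SQLE rose and FDPS and LSS fell, in the fatty acid branch SCD and ACACA fell and none rose, and among the regulators INSIG1 rose and SCAP fell. At 48 h, 3 of 27 passed, INSIG1 up and ACACA and SCAP down, against 8.38% of all genes. The count at 48 h was near the background. Without the truncated 24 h array 3 genes passed at 24 h (INSIG1, SCD and FASN) and 3 at 48 h. With the full-length, truncated or untreated series left out, 2, 3 and 5 passed at 24 h and 0, 0 and 1 at 48 h. In bulk RNA, fewer cells of a type and less RNA per cell cannot be told apart.

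The 15 sterol genes had a median change of -0.20 log2 at 24 h, with 4 higher and 11 lower and single changes from -0.73 to 0.72. The 7 fatty acid genes had a median of -0.50, with all 7 lower, from -1.05 to -0.09. The median of all genes was -0.03, with 52% lower. At 48 h the sterol median was -0.17 (4 higher, 11 lower) and the fatty acid median -0.27 (0 higher, 7 lower), against -0.01 for all genes. Without the untreated series the sterol median at 48 h was 0.04, and without the truncated 24 h array the sterol and fatty acid medians at 24 h were -0.12 and -0.38. Without the full-length series the order of the branches turned: the sterol medians were -0.38 and -0.34 at 24 and 48 h and the fatty acid medians -0.35 and -0.21. No test of the difference between branches was made, and both times share the 0 h arrays.

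By series, the fatty acid median at 24 h was -0.64 on the untreated arrays, -0.28 on the full-length arrays and -0.07 on the truncated arrays, and at 48 h it was -0.42, -0.39 and -0.28. It was below 0 in each of these 6 comparisons. The sterol median was -0.40 on the untreated arrays and -0.44 on the truncated arrays at 24 h but 0.16 on the full-length arrays. At 48 h these were -0.43, -0.16 and 0.24. The sterol median therefore had no sign common to the series, and the fatty acid median did, on the brightest probe sets. The fatty acid median of -0.07 came from 2 genes higher and 5 lower, on the truncated 24 h array. In each series the 24 and 48 h values share a single 0 h array.

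**Figure D1:**
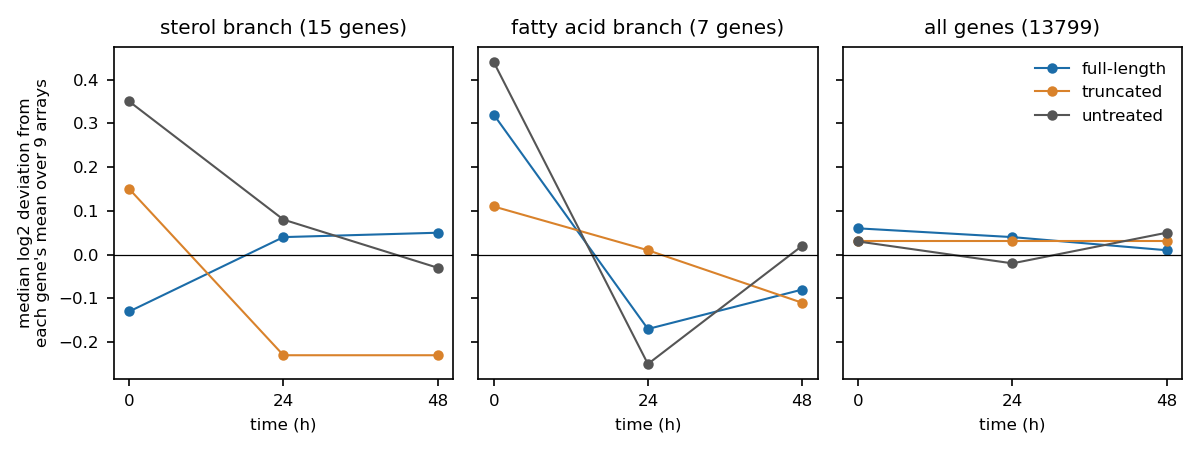
Median deviation of a branch from each gene's mean over the 9 arrays (log2, y axis) by time in hours (x axis), with 1 point per array and 1 line per series. At 0 h the fatty acid branch stood at 0.32, 0.11 and 0.44 on the full-length, truncated and untreated arrays and the sterol branch at -0.13, 0.15 and 0.35, while all genes stayed between -0.02 and 0.06 on all 9 arrays.

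Among the regulators, INSIG1 (chromosome 7, 155297878 to 155310235, GRCh38.p14) had signals at 0, 24 and 48 h of 205.4, 546.7 and 506.4 on the full-length arrays. They were 235.9, 353.6 and 675.1 on the truncated arrays and 444.9, 768.7 and 430.8 on the untreated arrays. Each series was higher at 24 h than at its own 0 h, and at 48 h both construct series were, while the untreated 48 h array was slightly below its 0 h array. INSIG1 rose by 0.93 ± 0.27 log2 at 24 h (1.91-fold; standard error; limma adjusted p = 0.025) and by 0.92 ± 0.27 at 48 h (adjusted p = 0.041). A second probe set showed 1.05 at 24 h (adjusted p = 0.0076), and the dimmest of the 3 showed 0.40 (0.55). At 48 h they showed 0.65 (adjusted p = 0.13) and 0.08 (0.93), and the average of the probe sets was 0.55 (0.25). Without the truncated 24 h array the 24 h change was 1.25 (adjusted p = 0.0078). Without the full-length series INSIG1 stood at 0.69 (adjusted p = 0.30) at 24 h and 0.74 (0.34) at 48 h, and without the truncated series at 0.63 (0.17) at 48 h.

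SCAP (chromosome 3, 47413681 to 47477127) moved the other way. Its signals at 0, 24 and 48 h were 240.4, 129.9 and 125.6 on the full-length arrays, 205.8, 64.78 and 111.8 on the truncated arrays, and 214.2, 128.5 and 95.24 on the untreated arrays. All 6 later arrays were below all 3 arrays at 0 h. SCAP fell by 1.10 ± 0.28 at 24 h (limma adjusted p = 0.013) and by 1.00 ± 0.28 at 48 h (adjusted p = 0.037), on its 1 probe set. Without the truncated series its change was -0.81 (adjusted p = 0.10) and without that series' 24 h array -0.78 (0.09). At 48 h the change was -1.03 (adjusted p = 0.21) without the full-length series, -1.05 (0.055) without the truncated and -0.91 (0.17) without the untreated series, and without the full-length series it was -1.20 (0.092) at 24 h.

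The genes of the SREBPs themselves were dim. SREBF1 (chromosome 17, 17811334 to 17836986) had signals of 8.989 to 46.46 and SREBF2 (chromosome 22, 41833105 to 41907305) of 27.3 to 124.1. SREBF1 had signals of 32.09, 29.73 and 37.19 on the full-length arrays, 8.989, 24.11 and 11.42 on the truncated arrays, and 26.47, 46.46 and 18.31 on the untreated arrays, with the truncated 0 h array near the floor. Its changes were 0.71 ± 0.71 at 24 h (limma adjusted p = 0.57) and 0.01 ± 0.71 at 48 h, and its series differed in sign. SREBF2 had signals of 60.86, 52.92 and 83.86 on the full-length arrays, 56.66, 89.28 and 75.2 on the truncated arrays, and 124.1, 52.55 and 27.3 on the untreated arrays. Its change was -0.26 ± 0.49 at 24 h (adjusted p = 0.79) and -0.44 ± 0.49 at 48 h (0.65), and it was lower at both times only on the untreated arrays, whose 0 h array was the highest of the 9. Its 2 other probe sets had 0.43 and 1.39 at 24 h, neither of which passed. STARD4, which moves cholesterol between membranes, had 443.7 on the untreated 0 h array and 136.4 to 288 on the other 8, with a change of -0.03 ± 0.29 at 24 h (adjusted p = 0.97).

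**Figure D2:**
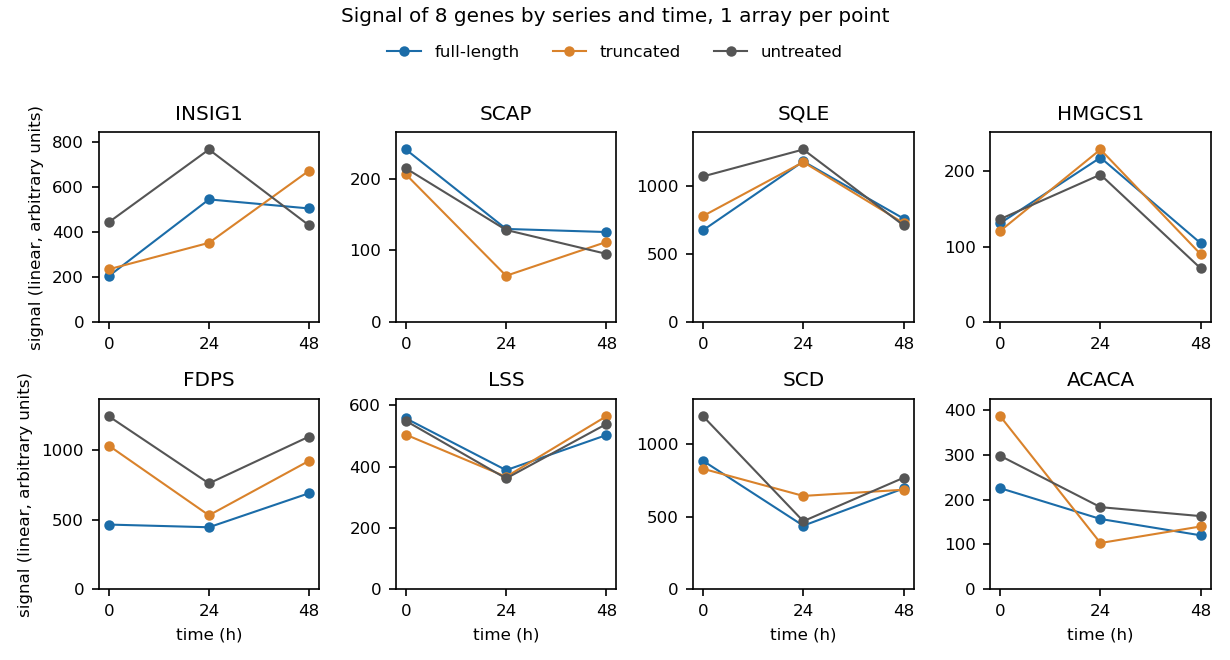
Signal (linear, arbitrary units, y axis from 0) by time in hours (x axis) for 8 genes, with 1 array per point and 1 line per series. SCAP is below its 0 h signals on all 6 later arrays, SQLE and HMGCS1 peak at 24 h in all 3 series, LSS dips at 24 h in all 3, and the FDPS lines keep the order untreated, truncated, full-length at each time.

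In the sterol branch the genes did not move as a block. HMGCS1, the synthase that makes HMG-CoA (chromosome 5, 43287470 to 43313412), had signals at 0, 24 and 48 h of 131, 217.7 and 104.5 on the full-length arrays, 120.8, 228.4 and 89.99 on the truncated arrays, and 136.4, 195.2 and 71.27 on the untreated arrays. The 24 h arrays were the highest and the 48 h arrays the lowest in every series, without overlap between the times. Its change was 0.72 ± 0.26 at 24 h (limma adjusted p = 0.068) and -0.56 ± 0.26 at 48 h (adjusted p = 0.20), neither of which passed. Without the truncated 24 h array the 24 h change was 0.66 (adjusted p = 0.21). A filter at the 60th percentile gave an adjusted p of 0.045 at 24 h. Its second, dim probe set had -0.45 at 24 h (adjusted p = 0.77).

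SQLE, squalene epoxidase, a rate-limiting enzyme of the branch (chromosome 8, 124998505 to 125022283), also peaked at 24 h in every series. Its signals were 673.5, 1177 and 759 on the full-length arrays, 777.5, 1172 and 726 on the truncated arrays, and 1067, 1264 and 709.3 on the untreated arrays. All 3 arrays at 24 h were above all 3 at 0 h. SQLE rose by 0.55 ± 0.16 at 24 h (limma adjusted p = 0.025) and stood at -0.17 ± 0.16 at 48 h (adjusted p = 0.57). Its 3 dimmer probe sets had changes of 0.04 to 0.29 at 24 h, none of which passed. The 24 h change was 0.42 (adjusted p = 0.22) without the full-length series, 0.53 (0.097) without the truncated series and 0.54 (0.075) without the truncated 24 h array. SC5D, a late desaturase, also had all 24 h arrays above the 0 h arrays, with 0.44 ± 0.17 (adjusted p = 0.10).

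FDPS, which makes farnesyl diphosphate (chromosome 1, 155308866 to 155320665), had signals of 463.9, 444.5 and 689.7 on the full-length arrays, 1032, 530.5 and 922.9 on the truncated arrays, and 1243, 759.9 and 1097 on the untreated arrays. Its 24 h array was the lowest of each series. FDPS fell by 0.58 ± 0.17 at 24 h (limma adjusted p = 0.033) and stood at 0.08 ± 0.17 at 48 h (adjusted p = 0.85). The 24 h change was -0.39 (adjusted p = 0.26) without the truncated series, -0.51 (0.18) without the untreated series and -0.45 (0.17) without the truncated 24 h array.

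LSS, lanosterol synthase, which closes the sterol rings (chromosome 21, 46188446 to 46228774), moved by like amounts in the 3 series. Its signals were 557.1, 388.1 and 502.6 on the full-length arrays, 503.9, 366.4 and 564.1 on the truncated arrays, and 548.8, 361.1 and 538.6 on the untreated arrays. The 24 h arrays were below all others. LSS fell by 0.53 ± 0.16 at 24 h (limma adjusted p = 0.030) and stood at 0.00 ± 0.16 at 48 h (adjusted p = 0.99), and the series changes at 24 h ran from -0.60 to -0.46. With 2 series in the fit its change was -0.56 to -0.49 with adjusted p of 0.069 to 0.17, and without the truncated 24 h array it was -0.52 (0.084). Its 2 dimmer probe sets had -0.63 and 0.27.

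The remaining 11 sterol genes did not pass at 24 or 48 h. NSDHL, a dehydrogenase of the demethylation steps, came nearest, with -0.73 ± 0.25 at 24 h (limma adjusted p = 0.065) and -0.78 ± 0.25 at 48 h (adjusted p = 0.071). On this brightest probe set its signal was lower in all 3 series at both times. A second, dimmer probe set had -0.25 (adjusted p = 0.77) and -0.31 (0.74). On that one the full-length and untreated series were higher at 24 h, and the full-length series at 48 h. TM7SF2, a sterol reductase with signals of 24.1 to 102.7, had -0.71 ± 0.51 at 24 h (adjusted p = 0.41). The mevalonate kinase gene MVK, the methylsterol oxidase gene MSMO1 and ACAT2, which makes acetoacetyl-CoA, had -0.40, -0.33 and -0.32 at 24 h. PMVK, IDI1, HSD17B7, EBP and DHCR7 lay between -0.20 and 0.08 at 24 h. The IDI1 and HSD17B7 values come from probe sets marked for possible cross-hybridization and are uncertain. A dimmer IDI1 probe set without that mark had 0.82 at 24 h (limma adjusted p = 0.092). On it, all 24 h arrays were above all 0 h arrays.

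Between 24 and 48 h, a contrast added after the values were seen, 3 of 27 genes passed, against 3.5% of all genes, and all 3 were sterol genes. HMGCS1 fell by 1.29 ± 0.26 (2.45-fold; limma adjusted p = 0.011) and SQLE fell by 0.72 ± 0.16 (adjusted p = 0.018), while FDPS rose by 0.65 ± 0.17 (0.049). With its probe sets averaged HMGCS1 stood at -0.28 (adjusted p = 0.80). With any 1 series left out none of the 3 passed. HMGCS1 on its brightest probe set then stood at -1.40 (adjusted p = 0.097) without the full-length, -1.26 (0.069) without the truncated and -1.20 (0.09) without the untreated series. SQLE stood at -0.76 (adjusted p = 0.098), -0.73 (0.074) and -0.66 (0.12), and FDPS at 0.66 (0.12), 0.58 (0.18) and 0.72 (0.16). Without the truncated 24 h array they stood at -1.22 (adjusted p = 0.064), -0.72 (0.07) and 0.52 (0.22). SCD, of the fatty acid branch, passed in that fit alone among those without 1 array or series, at 0.73 (adjusted p = 0.047).

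In the fatty acid branch, SCD, the desaturase that makes oleic acid (chromosome 10, 100347233 to 100364826), had signals at 0, 24 and 48 h of 886.9, 438.2 and 695.6 on the full-length arrays. They were 831.6, 644 and 686.8 on the truncated arrays and 1195, 469.2 and 769.3 on the untreated arrays. All 6 later arrays were below all 3 arrays at 0 h. SCD fell by 0.91 ± 0.18 at 24 h (1.88-fold; limma adjusted p = 0.0021) and stood at -0.42 ± 0.18 at 48 h (adjusted p = 0.16). A second probe set had -0.70 at 24 h (adjusted p = 0.07) and a dim one 0.01. The change at 24 h was -1.15 (adjusted p = 0.00051) without the truncated 24 h array and -0.86 (0.056) without the full-length series.

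ACACA, acetyl-CoA carboxylase, which makes malonyl-CoA (chromosome 17, 37084992 to 37406836), had 225.9, 156.9 and 120.3 on the full-length arrays, 386.9, 103.1 and 140.2 on the truncated arrays, and 298.3, 183.4 and 163.3 on the untreated arrays. Again every later array was below every 0 h array. ACACA fell by 1.05 ± 0.26 at 24 h (limma adjusted p = 0.012) and by 1.08 ± 0.26 at 48 h (adjusted p = 0.018). Its other probe set went the opposite way, with 0.87 at 24 h (adjusted p = 0.10) and 0.53 at 48 h (0.42), so the direction depends on the probe set. Their mean gave -0.09 (adjusted p = 0.84) and -0.28 (0.50). The brightest probe set had -0.61 (adjusted p = 0.17) at 24 h without the truncated series and -0.71 (0.097) without the truncated 24 h array. At 48 h it had -1.17 (adjusted p = 0.11), -0.89 (0.067) and -1.19 (0.062) without the full-length, truncated and untreated series.

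FASN, fatty acid synthase (chromosome 17, 82078338 to 82098236), had signals of 272.1, 126.4 and 177.7 on the full-length arrays, 193.4, 241.8 and 161.5 on the truncated arrays, and 270, 147.9 and 162.6 on the untreated arrays. The truncated series was higher at 24 h and the others lower. The changes were -0.55 ± 0.27 at 24 h (limma adjusted p = 0.19) and -0.54 ± 0.27 at 48 h (adjusted p = 0.24), and did not pass. Without the truncated 24 h array the 24 h change was -0.92 and passed (adjusted p = 0.034), as it did without the whole truncated series, at -0.99 (0.028). These values are of the brightest probe set. The other FASN probe set, which is dim, had 0.07 at 24 h (adjusted p = 0.97) and -0.67 at 48 h (0.74). The mean of both probe sets gave -0.24 (adjusted p = 0.79) and -0.6 (0.5). The elongase gene ELOVL6 had -0.50 ± 0.24 (adjusted p = 0.17) and the desaturase gene FADS2 -0.21 ± 0.30 at 24 h. ACLY and ACSS2, which supply acetyl-CoA to both branches, had -0.20 ± 0.13 and -0.09 ± 0.31.

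Arrays at 24 h did not overlap those at 0 h for 9 of 27 genes, 3 above and 6 below, against 29.8% of all genes. They were 6 of the 15 sterol genes, 2 of the 7 fatty acid genes and SCAP. At 48 h this was so for 7 of 27, all below, against 27.7%. At 48 h the 7 were HMGCS1, NSDHL, ACLY, ACACA, FASN, SCD and SCAP, so 4 of the 7 fatty acid genes and 2 of the 15 sterol genes. With both directions pooled, the shares over the 27 genes were near those of all genes. Of all 13799 genes, 1977 were above and 2129 below at 24 h, and 1870 above and 1953 below at 48 h. At 48 h all genes were thus split about evenly by direction, and the list was not. This difference in direction was not tested. With every probe set tested on its own, 8 of 56 passed at 24 h, 3 up and 5 down, against 13.1% of all probe sets, and 3 of 56 at 48 h against 6.22%. The 1 probe set added to the brightest ones was the second of INSIG1 at 24 h. When all probe sets of a gene were averaged, only SCAP, which has 1, still passed at 24 h, at -1.10 (limma adjusted p = 0.022), and no gene of the list at 48 h. INSIG1 then had 0.79 (adjusted p = 0.072) at 24 h, SQLE 0.26 (0.43), LSS -0.29 (0.69) and SCD -0.61 (0.30).

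**Figure D3:**
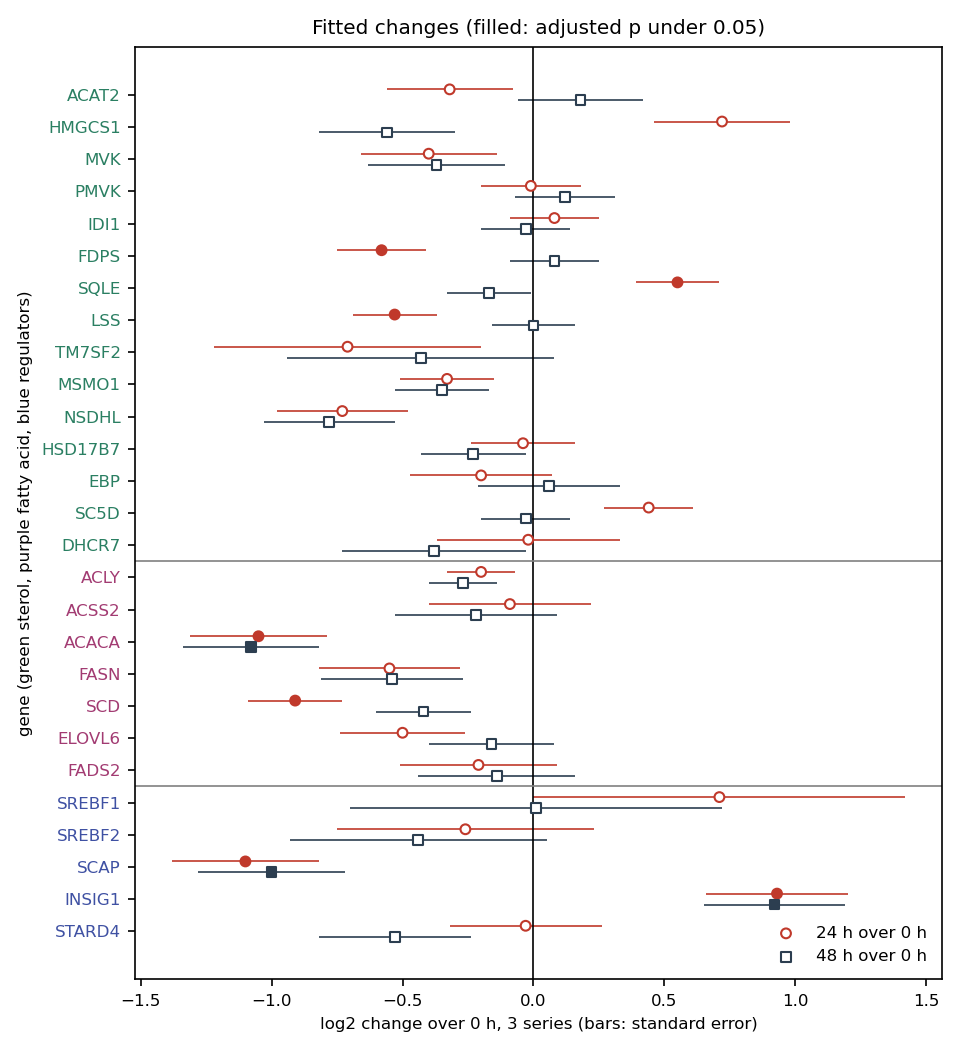
Fitted log2 change over 0 h (x axis) for the 27 genes (y axis), with circles for 24 h, squares for 48 h, bars for the standard error, and filled symbols where the adjusted p was under 0.05. All 7 fatty acid genes lie left of 0 at both times, and the sterol genes spread from -0.73 to 0.72 at 24 h.

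The 0 h arrays of the 3 series were then set apart, since every change is measured from them. They have no replicate, so these are single differences. Between untreated and full-length, the 15 sterol genes had a median difference of 0.44 log2, with 12 higher on the untreated array, and between untreated and truncated one of 0.27, again with 12 higher. For all genes these medians were -0.02 and 0.00, with 6534 and 6812 of 13799 higher on the untreated array. The untreated 0 h array was the highest of the 3 for 11 of 15 sterol genes, 2 of 7 fatty acid genes and 3 of 5 regulators. Which 0 h array was highest was not counted over all genes. The 7 fatty acid genes had medians of -0.01 and 0.07.

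A 2-fold difference at 0 h was reached by 5 of 27 genes between untreated and full-length, where 14.9% of all genes reached it, by 3 of 27 between untreated and truncated (13.2%) and by 2 of 27 between truncated and full-length (14.9%). FDPS differed by 1.42 log2 and EBP, a sterol isomerase, by 1.31 between untreated and full-length, and their truncated 0 h signals lay nearer the untreated ones. The EBP signals at 0 h were 162.9, 321.9 and 403.9 on the full-length, truncated and untreated arrays, but its 2 other bright probe sets had 201.8, 207.1 and 208.2, and 185.9, 257.7 and 252.9. INSIG1, SREBF2 and STARD4 were higher on the untreated array by 1.11, 1.03 and 1.04 than on the full-length array and by 0.92, 1.13 and 1.12 than on the truncated array. A second INSIG1 probe set had 140.8, 153.4 and 280.1 on the full-length, truncated and untreated arrays. The dimmest had 81.89, 51.3 and 69.13, with the untreated array not the highest. The other SREBF2 probe sets, both dim, had 22.63, 11.67 and 59.01, and 3.586, 42.34 and 33.51. The ACTB 3′ to 5′ ratio was 4.187, 2.251 and 2.724 on these 3 arrays; its part in the result was not tested.

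The spread of the 0 h arrays was wider than the 24 h change for 18 of 27 genes and than the 48 h change for 20 of 27, against 64.7% and 68.5% of all genes. It was so for 11 of 15 sterol genes but 3 of 7 fatty acid genes at 24 h. The median range over the 0 h arrays was 0.66 log2 for the sterol branch, 0.52 for the fatty acid branch, 1.12 for the 5 regulators and 0.53 for all genes.

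**Figure D4:**
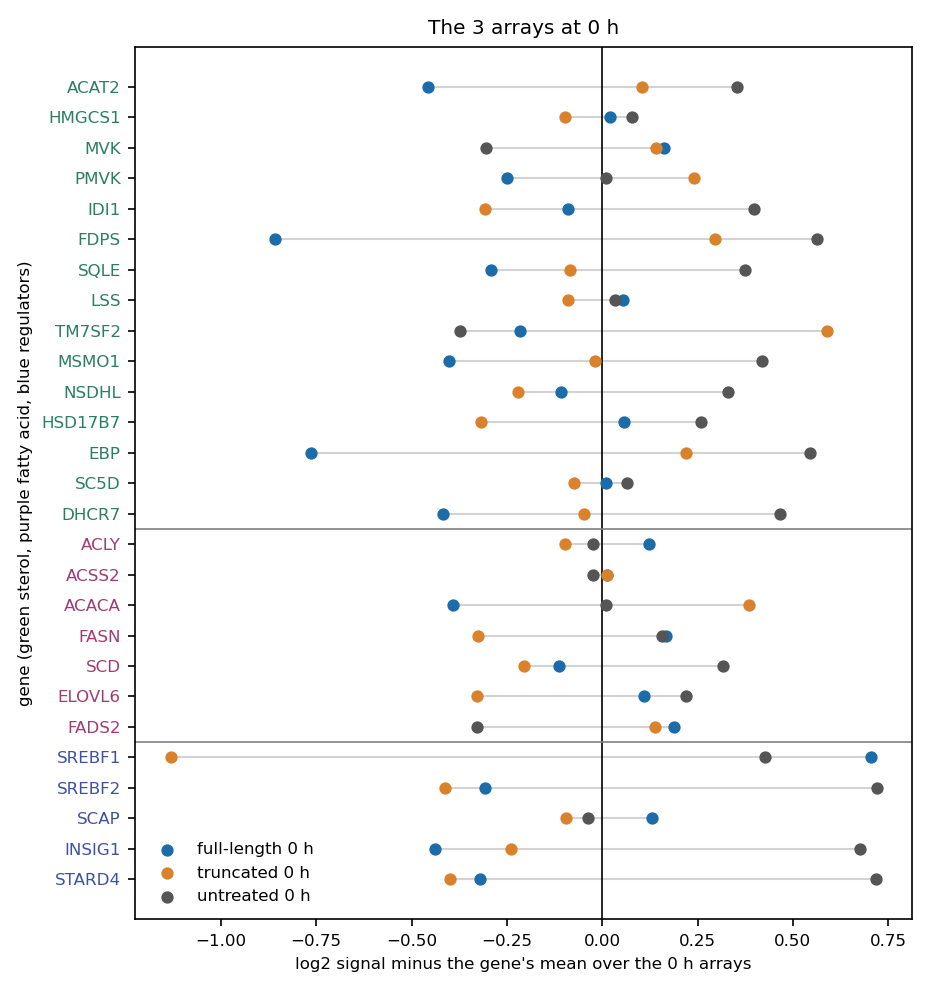
Log2 signal of the 27 genes (y axis) on the 3 arrays at 0 h, as the difference from the gene's mean over these arrays (x axis), with 1 point per array. The untreated point is the rightmost for 11 of 15 sterol genes and for INSIG1, SREBF2 and STARD4, while FDPS and EBP have the full-length point far to the left.

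Whether a construct altered the pathway was asked by setting each construct's change over 0 h against the untreated one, taking 24 and 48 h as repeated readings. None of the 27 genes passed in limma for full-length or truncated NRSF, with 7 and 2 at an unadjusted p under 0.05. Over all genes 1 of 13799 (0.00725%) and 5 (0.0362%) passed, with 578 and 1055 at an unadjusted p under 0.05. The median over the 15 sterol genes was 0.28 log2 for full-length and 0.24 for truncated NRSF, and over the 7 fatty acid genes 0.03 and 0.20, against 0.00 and 0.01 for all genes. Both comparisons share the untreated arrays.

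STARD4 had the smallest p of the list, with 1.42 ± 0.47 for full-length (unadjusted p = 0.0076; limma adjusted p = 1) and 1.47 ± 0.47 for truncated NRSF (0.0061; adjusted p = 0.37). Its signals at 0, 24 and 48 h were 216.2, 250.9 and 238.9 on the full-length arrays, 204.8, 288 and 200.1 on the truncated arrays, and 443.7, 257.4 and 136.4 on the untreated arrays. The construct series spanned 200.1 to 288 and the untreated series 136.4 to 443.7. DHCR7, the last enzyme of one route to cholesterol, had 1.55 ± 0.67 and 0.92 ± 0.67, EBP 1.38 ± 0.47 and 0.81 ± 0.47, and INSIG1 0.99 ± 0.52 and 0.68 ± 0.52 (limma adjusted p of 0.74 to 1). At 0, 24 and 48 h, the other bright EBP probe sets had full-length signals of 185.9, 147.9 and 195.2, and 201.8, 182.7 and 161.7. Their untreated signals were 252.9, 309.6 and 307.1, and 208.2, 248.8 and 218.2. On both, the full-length change was below the untreated one. The second DHCR7 probe set had 96.76, 116.4 and 46.46 on the full-length arrays and 141.7, 119.6 and 79.57 on the untreated arrays. Its full-length change was higher at 24 h only. SREBF2, which is dim, had the largest changes of the list, 1.84 ± 0.91 for full-length (unadjusted p = 0.061; limma adjusted p = 1) and 2.24 ± 0.91 for truncated NRSF (0.026; adjusted p = 0.53).

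At the same hour, the median sterol difference between full-length and untreated was -0.44 at 0 h, 0.09 at 24 h and 0.07 at 48 h. Between truncated and untreated it was -0.27, -0.11 and -0.14. For all genes the full-length medians were 0.02, 0.06 and -0.03 and the truncated ones 0.00, 0.03 and -0.02. The sterol branch thus differed most at 0 h, and the positive medians of the comparison over time carry that 0 h difference. The fatty acid medians were 0.01, 0.09 and -0.14 for full-length and -0.07, 0.46 and -0.10 for truncated NRSF, and the 0.46 is on the truncated 24 h array, which stood apart.

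**Figure D5:**
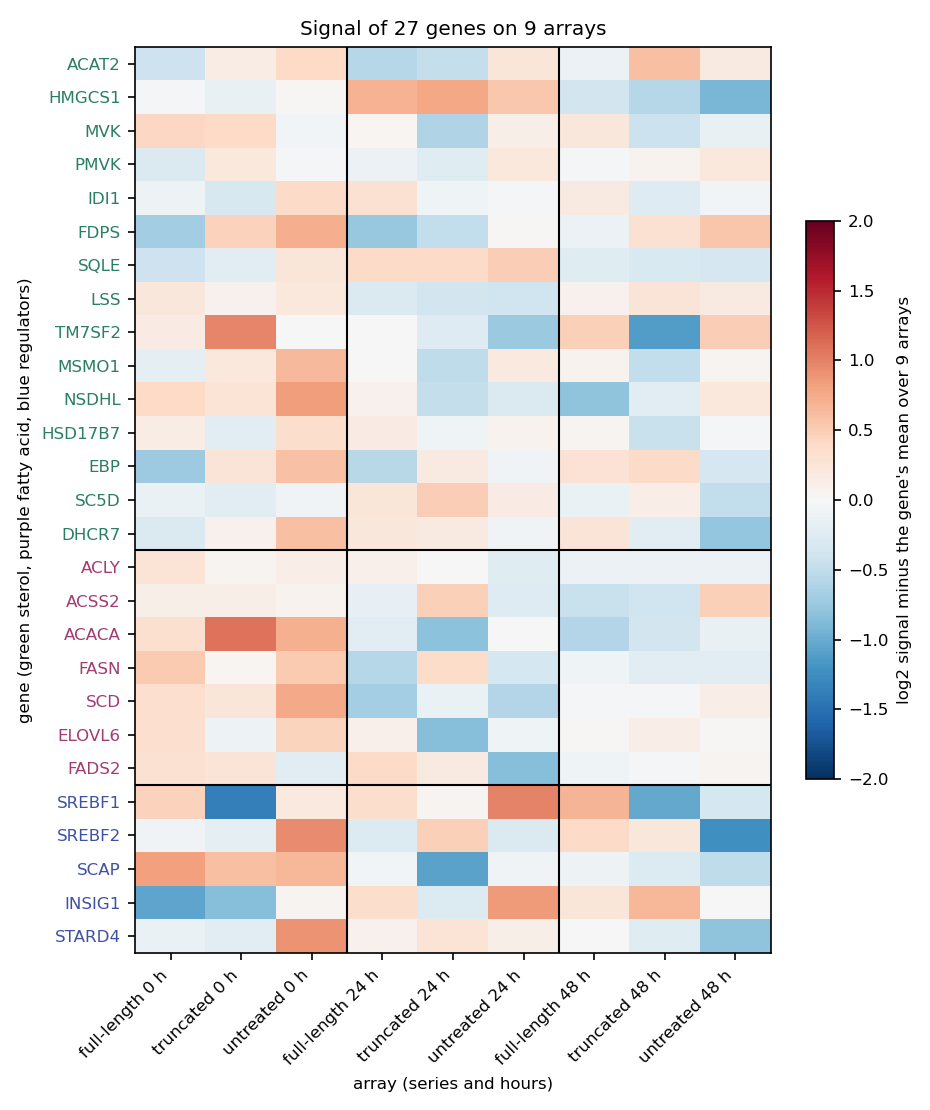
Log2 signal of the 27 genes (rows) on the 9 arrays (columns, grouped by hours), as the difference from each gene's mean over the arrays (red higher, blue lower). The untreated 0 h column is red for 12 of 15 sterol genes and for all 5 regulators, and the fatty acid rows are red at 0 h for 7, 6 and 6 of 7 genes on the full-length, truncated and untreated arrays.

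Of 30 other genes of lipid metabolism, 25 were tested. At 24 h 0 rose and 4 fell in limma, with a median of -0.17, and at 48 h 1 rose and 2 fell, with a median of -0.02. The 4 of 25 at 24 h are near the 16.2% of all genes that passed, and the 3 of 25 at 48 h stand beside 8.38%. MBTPS1, the protease that makes the first cut in SREBPs, fell by 0.68 ± 0.20 at 24 h (limma adjusted p = 0.029), and TECR, the reductase of very long chain fatty acid elongation, fell by 0.79 ± 0.22 (adjusted p = 0.022), but with its probe sets averaged it stood at 0.20 (0.74). NPC2, which exports cholesterol from lysosomes, fell by 0.56 ± 0.15 and 0.55 ± 0.15 at 24 and 48 h (limma adjusted p = 0.019 and 0.033), and GPAM, which starts glycerolipid synthesis, by 0.52 ± 0.15 and 0.68 ± 0.15 (0.028 and 0.012). Without the full-length series none of these 4 genes passed at 24 or 48 h, with TECR at -0.82, MBTPS1 at -0.51, NPC2 at -0.43 and -0.34 and GPAM at -0.60 and -0.78. Without the truncated series TECR (-0.56), NPC2 (-0.62 and -0.57) and GPAM (-0.44 and -0.53) did not pass, without the untreated series MBTPS1 (-0.57) and GPAM (-0.52 and -0.73) did not, and without the truncated 24 h array TECR (-0.49) and GPAM (-0.52) did not at 24 h. ME1, the malic enzyme that makes NADPH for fatty acid synthesis, rose by 0.69 ± 0.15 at 48 h (limma adjusted p = 0.0087). Its signals at 0, 24 and 48 h were 2339, 2504 and 3755 on the full-length arrays, 1860, 2237 and 3940 on the truncated arrays and 2010, 2017 and 2498 on the untreated arrays. The 48 h array was the highest of each series. With its probe sets averaged ME1 had 0.31 (adjusted p = 0.39). ME1 did not pass without the full-length (0.70, adjusted p = 0.11) or truncated (0.50, 0.10) series.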

How the data were processed

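RNA of 9 samples of SK-N-AS cells was measured on Affymetrix arrays. The authors deposited signal intensities on a linear scale for each probe set, for which the submitters' processing notes name GCOS, with no version or settings. The 2% trimmed mean was 150.02 on all 9 arrays, which shows scaling to 1 target; no further scaling was done. Signals were floored at the 25th percentile of all values (8.266) and the log2 was taken. Of 54675 probe sets, 62 were controls, 41091 named 1 gene in the platform annotation (41037 symbols updated by Entrez ID), 1801 named several and 11721 were not listed; those naming a single gene were used. The probe set with the highest mean stood for each of 19775 genes, and 13799 with a mean log2 above 4.2 (40th percentile) were tested. The floor shrinks differences that involve signals below it, and fitted changes of genes near it depend on the processing. SREBF1 at 24 h had 0.71 with this floor, 0.39 with log2(signal + 16) and 0.01 with a floor at the 40th percentile. At 48 h it had 0.01 with this floor and -0.52 with a floor at the 40th percentile.

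limma 3.58.1 in R 4.3.3 was used with lmFit and eBayes and a mean-variance trend, two-sided, with Benjamini-Hochberg adjustment over all 13799 genes. The time model (series and time) has 4 residual degrees of freedom, and the construct model 2, which are changes between 24 and 48 h and not replicate cultures; it fits the 0 h arrays exactly. The script was tested on simulated data. Branches are described by counts and medians, without a test. Values on every array are given for genes that passed at 24 or 48 h and for SREBF1, SREBF2, SCAP, INSIG1, FASN, SCD and SQLE; HMGCS1, STARD4 and EBP were added after their values were seen. The members, lists and rules were chosen with earlier results of these data known. The alternatives are another floor, log2(signal + 16), quantile normalization, other filters, the mean of all probe sets, no variance trend and arrays left out. With 1 array per group, precision is limited by the number of arrays.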

Additional observations from a re-analysis of the deposited data

How the results depend on the processing

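A floor at the 40th percentile, log2(signal + 16), quantile normalization and a filter at the 60th percentile kept these counts within 1.5 times. Genes of the list that passed at 24 h (7), at 48 h (3) and between 24 and 48 h (3) numbered 2, 0 and 0 without the filter, 1, 0 and 0 with probe sets averaged, and 0, 0 and 0 without the variance trend. Leaving out 1 series gave 2 to 5 at 24 h, 0 to 1 at 48 h and 0 to 0 between them, and leaving out the truncated 24 h array gave 3 at 24 h and 1 between 24 and 48 h. All genes that passed at 24 and 48 h (2242 and 1156) numbered 1264 and 394 without the filter, 1213 and 477 with probe sets averaged, 542 and 18 without the trend, 890 to 1465 and 212 to 660 without 1 series, and 1386 at 24 h without the truncated 24 h array. With neither construct did a gene of the list pass under any alternative run. The sterol median was -0.38 to -0.11 at 24 h over all alternatives, and at 48 h it was -0.34 to 0.04 without 1 series. The fatty acid median at 24 h was -0.24 to -0.55 over all alternatives, and at 48 h it moved to -0.42 without ACLY and ACSS2 and was -0.36 to -0.21 without 1 series. TECR at 24 h turned to 0.20 with probe sets averaged. Of 592 values of single genes of the list at 24 and 48 h (without those between 24 and 48 h and those of other lipid genes), 536 kept their side of the threshold, 53 lost a call and 3 gained one. The cause of these changes was not tested; fits without a series have 2 residual degrees of freedom, and without the filter more genes are tested.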
